A study of Mus musculus with 24 samples.

Results

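The collagen chain genes of mouse small cell lung cancer (SCLC) lines were described across 2 kinds of line, with and without p53 restoration. The members are the genes whose symbols follow the pattern Col, number, a, number, and 44 of the 25239 genes in the expression table did so. By class they were 11 fibrillar genes, 6 genes of basement membrane collagen (type IV) and 27 genes of all other classes.

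All 6 lines were grown from tumors of mice with the alleles Rb1 flox/flox and Rbl2 flox/flox, Trp53 XTR/XTR and Rosa26 FlpO-ER. The tumors were started with adenoviral Cre under the CMV promoter, so all lines, controls included, lack Rb1 and Rbl2, and the XTR gene trap holds Trp53 off until 4-hydroxytamoxifen (4-OHT) activates FlpO-ER, which removes the trap. The lines were sorted by what follows: Type D lines (4711-1, 4711-18 and 4716-11) die by necrosis, and those of Type V (4711-11, 4716-10 and 4716-14) survive. Libraries were made at 72 h from every line in 4 conditions, namely Control (vehicle), Control + CsA (cyclosporin A, a drug that binds cyclophilins), Restored (4-OHT) and Restored + CsA, which makes 24 libraries in 8 groups of 3 lines. Each line came from 1 tumor, and the sources used here do not say whether lines with the same number before the dash share an animal.

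Collagens are proteins of the extracellular matrix whose alpha chains wind into a triple helix built on a short repeat that starts with glycine. Fibrillar collagens form the banded fibres of connective tissue and cartilage. Type IV collagen forms the sheet-like network of basement membranes, on which epithelial cells sit. Other classes decorate fibrils (the FACIT collagens), form beaded filaments (type VI), anchor basement membranes to the matrix (type VII), build short networks (types VIII and X), carry heparan sulfate or chondroitin sulfate chains (the multiplexins XV and XVIII) or span the cell membrane. In lung, fibrillar collagen is known as a product of fibroblasts and basement membrane collagen as a product of epithelial and endothelial cells.

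Values are TPM, a transcript level scaled by gene length and to a fixed total for each library, so levels can be set side by side between genes but say nothing of the RNA per cell. In these bulk samples, fewer cells that express a gene and less RNA of it per cell cannot be told apart. Sequencing depth is unknown, since TPM keeps no record of it. Differences are given on the log2(TPM + 1) scale, which understates the change of genes with low values. A gene is called where a limma fit over all 14104 genes with at least 1 TPM in at least 3 libraries gave a Benjamini-Hochberg adjusted p under 0.05 and a difference of at least 1 log2. Of the 44 members, 32 passed that filter on level, 10 of 11 fibrillar, 6 of 6 basement membrane and 16 of 27 other genes. The filter can be passed through a single high group. Of the remaining 12, Col13a1 was listed at 0 in every library, Col10a1 reached 1.71 TPM in 1 library, and the other 10 stayed at or under 0.32 TPM.

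Trp53 itself lay between 10.5 and 15.3 TPM in the 12 libraries without restoration and between 181 and 253 TPM in the 12 with it, as labelled. The labelled cell type was checked against SCLC markers. Chga was listed at 0 in every library, Neurod1 and Calca stayed under 0.106 TPM, and Syp ran from 0.109 to 1.41 TPM. Ncam1 ran from 4.46 to 27.3 TPM. In Control libraries, Insm1 read 1.62, 0 and 3.07 TPM in Type D and 18.1, 1.59 and 5.30 TPM in Type V, which overlap, and Uchl1 read 0.383, 0.168 and 1.88 TPM against 40.9, 18.9 and 22.2 TPM. The 6 epithelial markers summed to 6655 to 16618 TPM in Type D and 689 to 2325 TPM in Type V. Most of the Type D sum was Krt8, Krt18 and Krt19. In Control, Epcam read 1.22, 4.57 and 0.435 TPM in Type D and 0.697, 1.64 and 0.564 TPM in Type V, which overlap. Cldn4 was at or under 1.37 TPM there. Cdh1 read 903, 641 and 676 TPM against 538, 246 and 130 TPM in Control, and overlapped between types in Restored. Of 8 fibroblast markers, only Fbln2 reached 1 TPM in any Type D library, and 5 did so in Type V libraries without restoration (Pdgfra, Pdgfrb, Dcn, Postn and Fbln2). The summed fibroblast list, most of it Fbln2, ran from 146 to 2139.9 TPM over Type D libraries and from 386 to 2768 TPM over those of Type V. None of the 4 endothelial markers reached 1 TPM in any library, and of 4 leukocyte markers only Cd68 did. The part these marker levels have in the collagen values below was not tested.

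Promoter sequences are printed for 2 pairs of genes. Col1a2 and Col3a1 fell with restoration in Type V lines (Col3a1 in the fit with the line block). The X-linked neighbours Col4a5 and Col4a6, which lie on opposite strands with 1343 bases between their annotated starts, were lower in Type D than Type V lines. The sequences are those of RefSeq on GRCm38.p6, read 5′ to 3′ on the strand of the gene, from up to 250 bases before the start and outside the annotated gene. Capitals mark matches on either strand to the GC box, which reads GGGCGG, to the box that reads CCAAT, and to the TATA box, which reads TATAAA. No match overlaps another. They lie at chr6:4505368-4505617 (Col1a2, plus strand), chr1:45311288-45311537 (Col3a1, plus strand), chrX:141475169-141475369 (Col4a5, plus strand) and chrX:141474096-141474326 (Col4a6, minus strand).
Col1a2: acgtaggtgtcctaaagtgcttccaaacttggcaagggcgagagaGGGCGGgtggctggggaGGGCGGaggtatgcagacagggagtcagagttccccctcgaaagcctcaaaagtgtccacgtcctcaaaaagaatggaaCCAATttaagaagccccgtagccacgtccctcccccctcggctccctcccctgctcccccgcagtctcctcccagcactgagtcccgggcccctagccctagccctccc
Col3a1: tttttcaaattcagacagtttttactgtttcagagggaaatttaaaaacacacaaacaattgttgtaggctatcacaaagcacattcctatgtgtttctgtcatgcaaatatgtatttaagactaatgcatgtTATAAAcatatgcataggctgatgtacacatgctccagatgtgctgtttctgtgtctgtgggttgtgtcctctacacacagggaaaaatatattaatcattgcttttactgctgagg
Col4a5: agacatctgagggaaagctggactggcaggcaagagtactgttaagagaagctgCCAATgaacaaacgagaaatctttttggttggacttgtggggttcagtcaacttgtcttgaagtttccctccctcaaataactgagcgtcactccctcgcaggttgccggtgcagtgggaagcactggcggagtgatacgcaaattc
Col4a6: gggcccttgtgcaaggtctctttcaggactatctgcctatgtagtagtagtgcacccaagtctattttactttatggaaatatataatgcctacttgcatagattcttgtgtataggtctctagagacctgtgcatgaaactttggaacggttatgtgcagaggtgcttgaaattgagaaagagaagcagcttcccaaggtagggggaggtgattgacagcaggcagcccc

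The Col1a2 sequence holds 2 GC boxes and 1 CCAAT box, Col3a1 holds 1 TATA box, Col4a5 holds 1 CCAAT box, and Col4a6 holds none of the 3 motifs. The full windows of Col4a5 and Col4a6 also hold a GC box, in bases inside the annotated gene that are not printed. Among all 32851 RefSeq windows of 250 bases, 32.7% hold a GC box, 33.8% a CCAAT box and 12.4% a TATA box. The windows were available for 25 of the 32 genes tested, of which 16 hold a GC box, 10 a CCAAT box and 3 a TATA box. A motif of the p53 consensus decamer was found in the window of 1 of these 25, Col20a1, against 7.13% of all windows. It is printed with 10 bases on each side and the match in capitals, at chr2:180986439-180986468 on the plus strand of GRCm38.p6, inside the annotated gene and before a later start. Such matches describe the letters only.
Col20a1: aatggatgcaGAACAAGCTTtcttgtcagg

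Summed over all 44 genes, collagen transcripts took 0.0396% to 0.0958% of all TPM in Type D libraries and 0.128% to 0.362% in Type V libraries, so the types did not overlap in any condition. The makeup differed as well. In Type D, basement membrane genes led in every library, with 56.7% to 78.1% of the collagen TPM, and fibrillar genes made up 1.02% to 5.02%. In Type V the share of the fibrillar genes depended on the line. It was 59.9% in 4711-11, 28.1% in 4716-10 and 13.2% in 4716-14 in Control, and 82.2%, 15.8% and 4.67% in Restored. Class sums carry no test here.

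**Figure D1:**
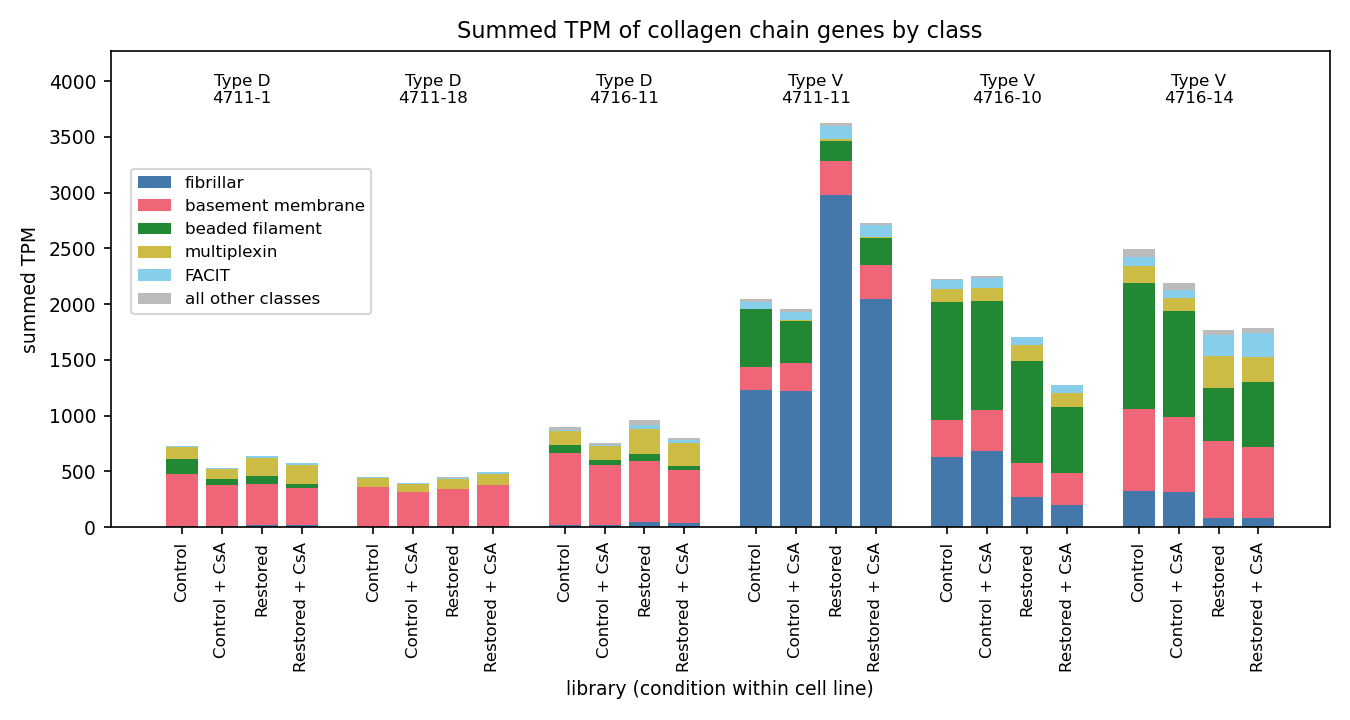
Stacked bars give the summed TPM of collagen chain genes in each of the 24 libraries, by class, with the 4 conditions of a line side by side. The 12 Type D libraries sum to between 396 and 958 TPM and the 12 Type V libraries to between 1276 and 3621 TPM, and the fibrillar part (blue) is largest in line 4711-11.

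In Control, 14 of 32 tested collagen genes were called lower in Type D lines and 0 were called higher, with Type V as the reference. Over all 14104 genes tested, 4.41% were called lower and 4.42% higher. The 14 were 6 of 10 fibrillar genes, 2 of 6 basement membrane genes and 6 of 16 others. Among them, Col1a2, Col3a1, Col4a6, Col5a3, Col8a2, Col11a1 and Col12a1 reached 1 TPM in Type V libraries only. These genes passed the filter on level through Type V and could only come out lower in Type D. The counts of lower genes therefore restate that filter in part. The median difference (Type D minus Type V) was -4.39 log2 for fibrillar, 0.14 for basement membrane and -1.22 for other genes, against -0.12 for all genes tested. For 18 of 32 genes all Type D lines lay below all Type V lines, and for 1 of 32 (Col20a1) above them, where 19.5% and 11.9% of all genes did so.

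Type I collagen, the main fibrillar collagen of bone, skin and scar, is built from the products of Col1a1 and Col1a2. Col1a1 stood at 0.352, 0.879 and 1.03 TPM in Control libraries of 4711-1, 4711-18 and 4716-11, and at 103, 349 and 11.8 TPM in those of 4711-11, 4716-10 and 4716-14. The groups did not overlap, and the difference was -5.49 ± 1.60 log2 (SE, 3 lines a type, limma adjusted p = 0.0288). Col1a2 did not pass 0.0345 TPM in Type D Control, while the Type V lines read 19.0, 80.7 and 170.2 TPM (-6.00 ± 0.63 log2, limma adjusted p = 3.41e-06). Across all conditions no Type D library passed 0.0673 TPM for Col1a2, and 8 of 12 were listed at 0. The order of the Type V lines was not the same for the chain genes of type I: 4716-10 was highest for Col1a1 and 4716-14 for Col1a2.

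Col3a1, the chain of the type III collagen found with type I in soft tissue, did not pass 0.0198 TPM in Type D Control, while the Type V lines read 34.6, 6.34 and 20.8 TPM (-4.15 ± 0.90 log2, limma adjusted p = 0.00427). Col5a1, a chain of the type V collagen that starts fibril assembly, was at 4.67, 0.712 and 10.3 TPM against 125, 145 and 101 TPM, a narrow range among the Type V lines (-4.69 ± 0.84 log2). Col5a3, another type V chain, was at 0.176 TPM or less against 0.846, 7.50 and 4.37 TPM (-2.01 ± 0.55 log2). Col11a1, a chain of the cartilage collagen type XI, was at 0.07 TPM or less in Type D against 106, 10.5 and 9.97 TPM (-4.54 ± 1.21 log2). Limma adjusted p was 0.000918, 0.0195 and 0.0174 for these 3 genes.

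Col5a2 and Col2a1 were not called without the line block, and their Type V lines lay far apart. Col5a2 read 195, 12.2 and 1.79 TPM in Control libraries of 4711-11, 4716-10 and 4716-14, and no Type D Control library passed 0.0332 TPM (-4.23 ± 1.84 log2, limma adjusted p = 0.142). Col2a1, the chain of the cartilage collagen type II, is given here because of its values, outside the rule for naming genes. It read 634 TPM in 4711-11, 7.83 TPM in 4716-10 and 4.26 TPM in 4716-14, and 0.339 TPM or less in Type D (-4.76 ± 2.29 log2, limma adjusted p = 0.186). With the cell line as a random block, 16 of 32 genes were called lower (5.84% of all genes), and Col2a1 and Col5a2 were the genes added. That fit applies 1 correlation to all genes, and its SE was 1.48 log2 for Col2a1 and 1.08 log2 for Col5a2. The SE of Col1a2 went the other way, from 0.63 to 0.79 log2. As the lines of the types are separate, pairing cannot sharpen this difference, and the added calls carry little weight. The other fibrillar genes, Col11a2 and Col27a1, overlapped between types, with 1.17 to 7.46 TPM in Type D and 0.985 to 6.73 TPM in Type V Control libraries.

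Basement membrane collagen split by chain. Col4a1 and Col4a2, the chains of the most widespread type IV network, were abundant in every Type D line. Col4a1 read 309.8, 209 and 429.9 TPM in 4711-1, 4711-18 and 4716-11, and 27.6, 154 and 381 TPM in 4711-11, 4716-10 and 4716-14. The groups overlapped, through 4716-14 alone. Col4a2 followed Col4a1, at 108 to 193 TPM in Type D and 20.3, 84.6 and 209 TPM in Type V. The ratio of Col4a1 to Col4a2 TPM was 1.65 to 2.23 in the 12 Type D libraries and 1.03 to 1.94 in the 12 Type V libraries. Neither gene was called in any of the 11 comparisons.

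Col4a5 and Col4a6, chains of the network that includes the kidney and smooth muscle forms of type IV collagen, went the other way. Col4a5 read 6.74, 30.2 and 17.3 TPM in Type D and 157, 76.8 and 110.1 TPM in Type V Control libraries (-2.76 ± 0.53 log2, limma adjusted p = 0.00163). Col4a6 was at 0.0495 TPM or less in Type D and at 2.21, 21.7 and 27.8 TPM in Type V (-3.64 ± 0.82 log2, limma adjusted p = 0.0058). In the Type V libraries, Col4a5 exceeded Col4a6 by a ratio of 3.54 to 4.24 in 4716-10 and 4716-14 and of 31.9 to 70.9 in 4711-11. Col4a3 and Col4a4, the partners of Col4a5 in the kidney filter, reached 1 TPM in 4711-18 only, where Col4a3 read 0.707 to 1.63 TPM and Col4a4 0.821 to 2.30 TPM.

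Among the other classes, Col18a1 was the top gene in each of the 12 Type D libraries and Col6a1, of the beaded filament collagen type VI, in each of the 12 Type V libraries. Col6a1 read 107, 1.99 and 59.1 TPM in the Control libraries of 4711-1, 4711-18 and 4716-11, and 402, 757 and 851 TPM in those of 4711-11, 4716-10 and 4716-14 (-4.57 ± 1.40 log2, limma adjusted p = 0.037). Col6a2 read 26.0, 0.748 and 12.8 TPM against 119, 293 and 277 TPM (-4.63 ± 1.09 log2, limma adjusted p = 0.00764). Line 4711-18 was the low line for both genes in every condition, at or under 1.99 TPM. Col6a3, whose product completes the usual type VI molecule, passed 1 TPM only in 4716-10, at 9.34 TPM in Control.

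The FACIT genes Col12a1 and Col16a1, whose products sit on fibril surfaces, kept the types far apart. Col12a1 read 0.131, 0.181 and 0.429 TPM in Type D and 11.5, 29.8 and 23.7 TPM in Type V (-4.10 ± 0.57 log2, limma adjusted p = 8.12e-05). Col16a1 read 0.998, 1.08 and 7.19 TPM against 48.3, 46.0 and 58.0 TPM (-3.99 ± 0.52 log2, limma adjusted p = 3.41e-05). Col7a1, the anchoring fibril chain, read 0.797 to 1.19 TPM against 11.3, 3.09 and 17.0 TPM (-2.31 ± 0.64 log2), and Col8a2, a chain of the short network collagen type VIII, 0.0504 TPM or less against 1.80, 6.89 and 2.06 TPM (-2.00 ± 0.42 log2). The multiplexin Col18a1, the source of endostatin, overlapped: it read 109.7, 84.5 and 127 TPM in Type D, 106 and 141 TPM in 4716-10 and 4716-14, and 3.84 TPM in 4711-11.

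**Figure D2:**
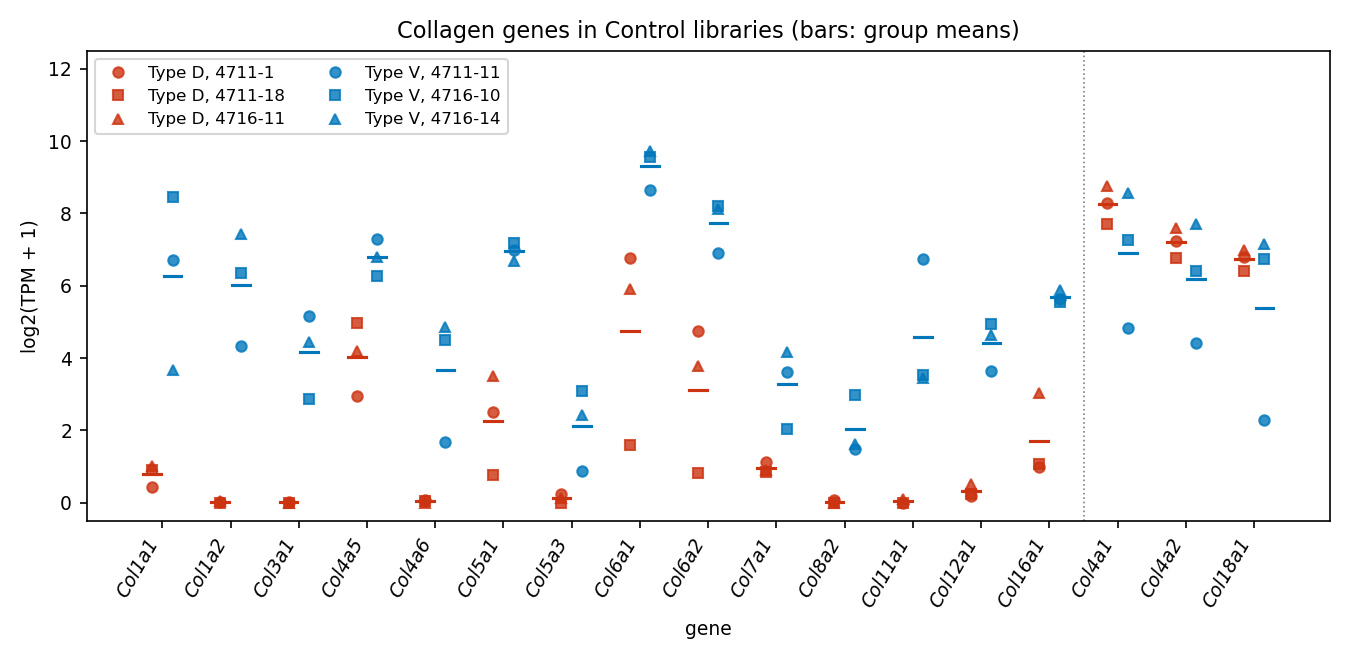
Points give log2(TPM + 1) in the Control library of each of 3 Type D (red) and 3 Type V (blue) lines for the 14 genes called between types and, right of the dotted line, 3 abundant genes that were not called. Short bars are group means. Red points lie below all blue points for each of the 14 genes, and the colors overlap for Col4a1, Col4a2 and Col18a1.

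The fit counts 4 libraries of each line in its estimate of spread. In a fit to the 6 Control libraries alone, 7 genes were called lower (Col1a2, Col3a1, Col4a5, Col5a1, Col11a1, Col12a1 and Col16a1), and without line 4716-11 there were 9. The calls of Col1a1, Col5a3, Col6a1, Col6a2, Col7a1 and Col11a1 were lost in 5, 4, 4, 1, 4 and 3 of the 6 fits that left out 1 line, with adjusted p of up to 0.144, 0.109, 0.152, 0.0593, 0.108 and 0.0983.

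In Restored libraries, 8 of 32 collagen genes were called lower in Type D and 0 higher (4.99% and 4.45% of all genes). They were Col1a2, Col4a5, Col4a6, Col5a1, Col6a2, Col11a1, Col12a1 and Col16a1, all of which had been called in Control. Here too, Col1a2, Col4a6, Col11a1 and Col12a1 had passed the filter on level through Type V and could only come out lower in Type D. All Type D lines lay below all Type V lines for 15 of 32 genes and above them for 0, against 16.1% and 13.1% of all genes. Differences ran from -3.15 ± 0.63 log2 (Col1a2, limma adjusted p = 0.0024) to -5.04 ± 0.57 log2 (Col12a1, limma adjusted p = 7.91e-06). With the random block 12 genes were called lower (6.17% of all genes), the additions being Col1a1, Col5a2, Col5a3 and Col6a1. As in Control, these additions rest on 1 correlation applied to all genes. A fit to the 6 Restored libraries alone called 5, without Col5a1, Col6a2 and Col11a1. Those 3 calls were also lost in 3, 2 and 3 of the 6 fits with 1 line left out, with adjusted p of up to 0.0547, 0.0602 and 0.166.

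In Type D lines the collagen genes called with restoration were few. Without the line block, 3 of 32 were called higher and 0 lower (4.49% and 2.44% of all genes). All 3 belonged to the other classes. With the cell line as a block, which compares each Restored library with the Control library of its own line, 4 were called higher and 2 lower (7.05% and 4.16% of all genes).

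Col9a3, a chain of the FACIT collagen type IX of cartilage, read 0.194, 0.204 and 0.253 TPM in Control and 5.30, 5.43 and 12.8 TPM in Restored libraries of 4711-1, 4711-18 and 4716-11. It was higher in 3 of 3 lines, by 2.76 ± 0.70 log2 (limma adjusted p = 0.0128). Col20a1, another FACIT gene, went from 3.47, 3.23 and 3.95 TPM to 10.4, 6.40 and 16.0 TPM (1.31 ± 0.33 log2, limma adjusted p = 0.0113). Col17a1, the transmembrane collagen of epithelial hemidesmosomes, went from 0.0398, 0 and 0.325 TPM to 1.93, 0.436 and 2.07 TPM (1.08 ± 0.31 log2, limma adjusted p = 0.0261). These remain low levels. Col17a1 reached 1 TPM only in libraries with restoration, so it passed the filter on level through them. Within Type D, Col9a3 also reached 1 TPM only with restoration. From such Control levels neither Col17a1 nor Col9a3 could have been called lower in Type D. Without 4711-1, and likewise without 4716-11, 0 collagen genes were called. Col9a3 was also lost without 4711-18 (adjusted p of up to 0.158, 0.14 and 0.281 for Col9a3, Col20a1 and Col17a1 over the 6 fits), and a fit to the 6 libraries alone called Col9a3 and Col2a1 but neither Col20a1 nor Col17a1.

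With the block, Col2a1 joined the higher genes, from 0.0429, 0.339 and 0.0702 TPM to 3.39, 3.89 and 7.99 TPM (2.34 log2, higher in 3 of 3 lines). From its levels without restoration Col2a1 could not have been called lower in Type D, with or without CsA. Its blocked adjusted p was 0.000942, and the range over all alternatives was 0.000942 to 0.862. The lower genes with the block were Col6a2 and Col16a1. Col6a2 went from 26.0, 0.748 and 12.8 TPM to 6.69, 0.0259 and 5.23 TPM (-1.24 log2), and Col16a1 from 0.998, 1.08 and 7.19 TPM to 0.0645, 0.124 and 2.08 TPM (-1.07 log2), both lower in 3 of 3 lines. Col4a1, Col4a2 and Col18a1, which made up most of the Type D collagen TPM, were not called with or without the block. Col18a1 read 162, 83.3 and 221 TPM in Restored, higher than Control in 4711-1 and 4716-11 and not in 4711-18.

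In Type V lines, 2 of 32 genes were called higher and 2 lower with restoration (3.39% and 1.9% of all genes), and with the line block 5 higher and 6 lower (5.74% and 2.93% of all genes). With the block 4 of 10 fibrillar genes (Col1a1, Col1a2, Col3a1 and Col5a1) were called lower and 0 higher, and of the 16 other genes 2 (Col6a2 and Col8a2) were called lower and 4 higher. The median change was -0.64 log2 for fibrillar, -0.17 for basement membrane and -0.48 for other genes, against 0.05 for all genes tested, and the classes were not tested against each other.

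Col1a2 fell from 19.0, 80.7 and 170.2 TPM in 4711-11, 4716-10 and 4716-14 to 6.36, 11.6 and 6.89 TPM (-2.86 ± 0.63 log2, limma adjusted p = 0.00594). The lines that were nearly an order of magnitude apart in Control ended within a narrow range. Col3a1 went from 34.6, 6.34 and 20.8 TPM to 16.5, 0.518 and 0.417 TPM (-2.41 ± 0.90 log2, limma adjusted p = 0.101), and was called with the block only (adjusted p = 0.000322, range over the alternatives 0.000322 to 0.505). Line by line the changes of Col3a1 were -1.02, -2.27 and -3.94 log2 and those of Col1a2 -1.44, -2.69 and -4.44 log2, in the same order of lines. Col1a1 went from 103, 349 and 11.8 TPM to 94.7, 136 and 0.698 TPM, a change of -0.13 log2 in 4711-11, -1.35 in 4716-10 and -2.91 in 4716-14. Col5a1 fell to 42.7, 91.5 and 47.3 TPM, a change of -1.53 log2 in 4711-11, -0.66 in 4716-10 and -1.08 in 4716-14. In 4711-11 it fell more than Col1a1, Col1a2 and Col3a1, and in the other lines less.

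Col2a1 set 4711-11 apart. Its level went from 634 to 2396 TPM in that line, from 7.83 to 3.89 TPM in 4716-10 and from 4.26 to 15.0 TPM in 4716-14. It therefore made up 51.7% of the fibrillar TPM of 4711-11 in Control and 80.5% in Restored. The leading fibrillar gene of 4716-10 was Col1a1 in both conditions (55.6% and 50.4%), and that of 4716-14 was Col1a2 in Control (51.9%) and Col5a1 in Restored (57.3%). Col2a1 was not called in Type V with or without the block.

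**Figure D3:**
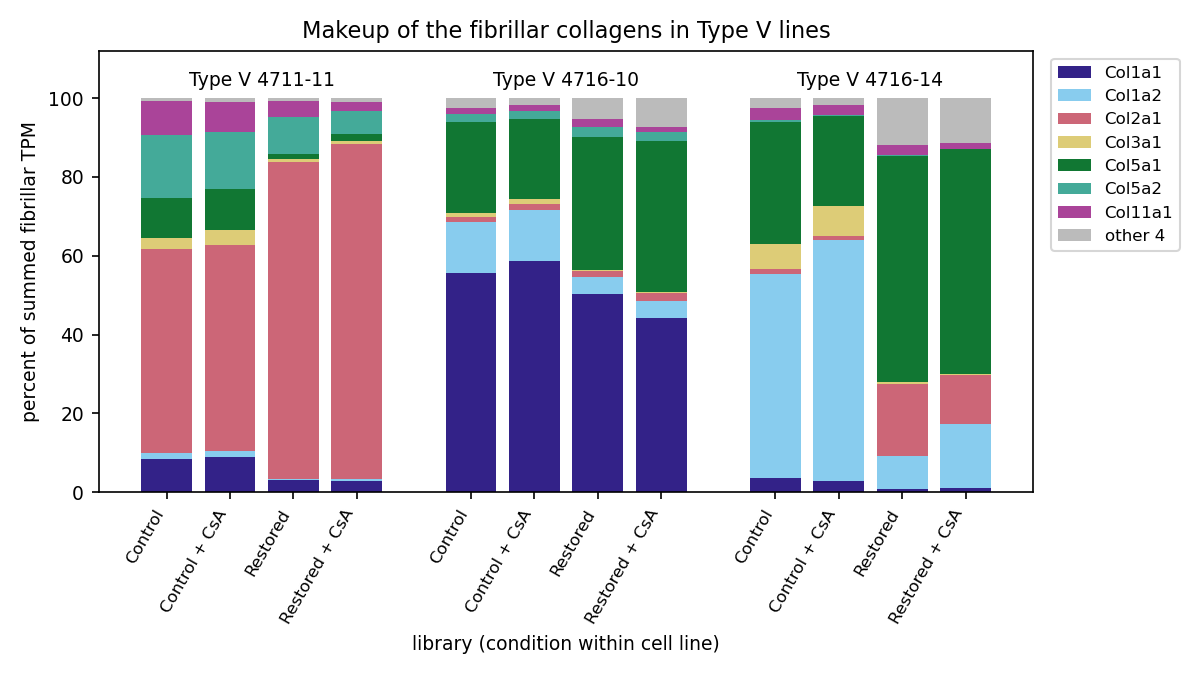
Stacked bars give the percent of the summed fibrillar TPM taken by each gene in the 12 Type V libraries, 4 conditions a line. Col2a1 (rose) goes from 51.7% to 80.5% in 4711-11 with restoration, and Col1a2 (light blue) from 51.9% to 8.35% in 4716-14.

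The other lower genes of Type V were Col8a2, from 1.80, 6.89 and 2.06 TPM to 0.352, 1.04 and 0.341 TPM (-1.40 ± 0.42 log2, limma adjusted p = 0.041), and, with the block only, Col6a2, from 119, 293 and 277 TPM to 23.9, 219 and 94.8 TPM. The call of Col8a2 was lost in 5 of 6 fits that left out 1 line, with adjusted p of up to 0.115. Col6a1 and Col16a1 were lower in 3 of 3 lines and not called.

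The higher genes of Type V were again Col9a3 and Col20a1. Col9a3 went from 1.02, 0.631 and 0.411 TPM to 7.34, 7.78 and 66.0 TPM (3.35 ± 0.70 log2, limma adjusted p = 0.00399), so that 4716-14, the lowest line in Control, was the highest in Restored. Without restoration Col9a3 did not pass 1.123 TPM in any library, so it passed the filter on level through libraries with restoration. From such levels it could not have been called lower in Type V, with or without CsA. Col20a1 went from 1.80, 1.32 and 1.43 TPM to 9.11, 16.8 and 6.87 TPM (2.16 ± 0.33 log2, limma adjusted p = 0.000225), and its call passed in every alternative run. The block added Col4a6, Col18a1 and Col22a1. Col4a6 went from 2.21, 21.7 and 27.8 TPM to 6.68, 35.8 and 62.0 TPM (1.03 log2), and its neighbour Col4a5 from 157, 76.8 and 110.1 TPM to 242, 136 and 227 TPM, under the 1 log2 limit. Col18a1 went from 3.84, 106 and 141 TPM to 23.2, 145 and 279 TPM (1.25 log2). Col22a1, a FACIT gene of tissue junctions and outside the rule for naming genes, reached 6.98 TPM in 4716-14. It passed the filter on level only through libraries with restoration. A fit to the 6 libraries alone called Col20a1 only.

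Col12a1 moved in opposite directions by line. It went from 11.5 to 63.4 TPM in 4711-11 and from 23.7 to 69.0 TPM in 4716-14, and from 29.8 to 14.4 TPM in 4716-10. It was not called.

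**Figure D4:**
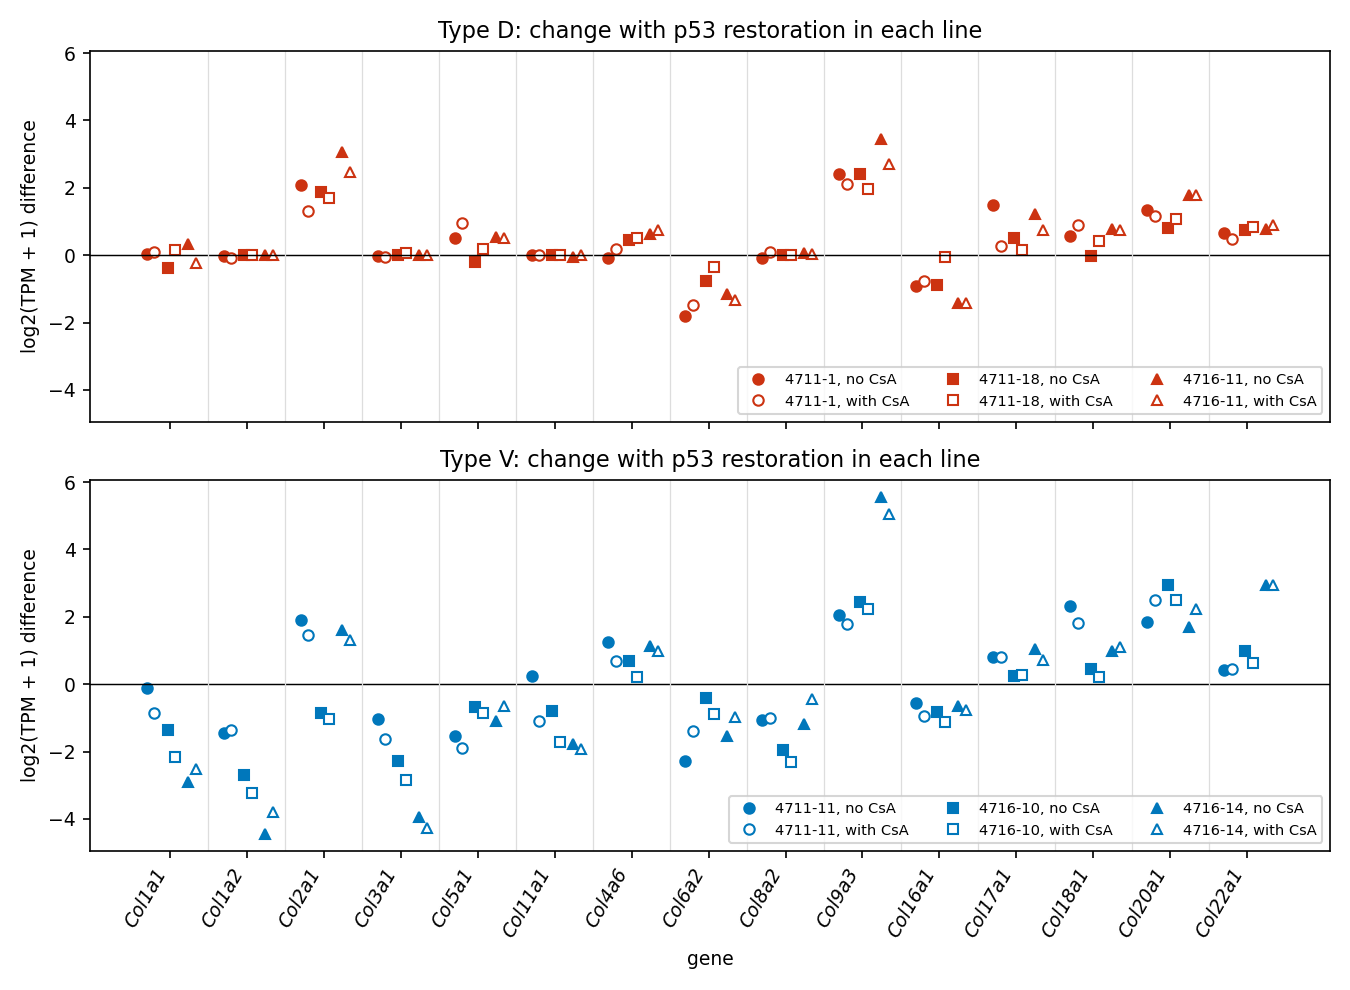
Points give the change in log2(TPM + 1) with restoration in each line, without CsA (filled) and with CsA (open), for the 15 collagen genes called in either type with or without the line block. Type D is above and Type V below. Col9a3 and Col20a1 lie above 0 in all 6 lines, and Col1a2 and Col3a1 lie below 0 in all 3 Type V lines and near 0 in Type D, where they were at or under 0.0673 TPM.

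Whether the change with restoration differed between types was tested as the difference of the changes. Without the block 0 of 32 collagen genes were called (0.0284% of all genes, and 2 collagen genes at an unadjusted p under 0.05), and with the block 5 were called higher in Type D and 0 lower (1.13% and 1.3% of all genes). The 5 were Col1a2 (2.85 log2), Col3a1 (2.40), Col5a1 (1.38), Col8a2 (1.40) and Col7a1 (1.10). For Col1a2, Col3a1 and Col8a2 the level was 0.0673 TPM or less in all 12 Type D libraries, so a fall there could not have been seen. Col5a1 and Col7a1 were measurable in Type D. Col5a1 went from 4.67, 0.712 and 10.3 to 7.12, 0.497 and 15.5 TPM there, and Col7a1 from 1.19, 0.797 and 0.879 to 2.32, 1.87 and 1.93 TPM, while in Type V Col7a1 went from 11.3, 3.09 and 17.0 to 6.27, 1.85 and 15.6 TPM. The difference for Col1a2 was also called in the fit without the block when 4711-11 was left out (1 gene called).

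Restoration in the presence of CsA was measured in separate libraries and gave 1 gene higher and 0 lower in Type D (3.53% and 1.88% of all genes) and 2 higher and 1 lower in Type V (2.84% and 1.77%). With the block it was 3 higher and 1 lower in Type D (5.91% and 3.78% of all genes) and 4 higher and 7 lower in Type V (5.03% and 2.94%). In Type D, Col20a1 was called (1.34 ± 0.33 log2, limma adjusted p = 0.0128), from 4.44, 2.68 and 3.20 TPM to 11.3, 6.70 and 13.5 TPM. Its call was lost without 4711-1 and without 4716-11 (adjusted p of up to 0.18) and in the fit to the 6 libraries alone, which called Col2a1 and Col9a3 instead. Col9a3 read 3.83, 3.69 and 9.13 TPM in Restored + CsA, and Col2a1 1.83, 2.96 and 5.37 TPM.

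In Type V with CsA, Col1a2 fell from 21.0, 89.1 and 194 TPM to 7.57, 8.56 and 13.1 TPM (-2.79 ± 0.63 log2, limma adjusted p = 0.0077), a call lost without 4716-10 (adjusted p of up to 0.103 over the 6 fits). Col9a3 (3.02 ± 0.70 log2, limma adjusted p = 0.0097) and Col20a1 (2.41 ± 0.33 log2, limma adjusted p = 7.29e-05) rose. Without 4711-11, 6 genes were called, and a fit to the 6 libraries alone called Col20a1 only. Fibrillar chains made up 5 of the 7 genes called lower with the block, Col1a1, Col1a2, Col3a1, Col5a1 and Col11a1, with Col6a2 and Col8a2 beside them. Col11a1 went from 95.0, 10.5 and 7.45 TPM to 43.6, 2.48 and 1.21 TPM with CsA, lower in 3 of 3 lines, and without CsA from 106 to 125 TPM in 4711-11, and down in the other lines.

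CsA itself called 0 of 32 collagen genes in each of 4 comparisons, without and with the block. Over all genes, limma called 0% in Type D Control, 0% in Type V Control, 0.0142% in Type D Restored and 0% in Type V Restored libraries. At an unadjusted p under 0.05 the collagen genes numbered 0, 0, 1 and 0. Without being called, Col6a1 went from 107, 1.99 and 59.1 to 41.5, 0.941 and 38.9 TPM in Type D Control, and Col4a1 from 309.8, 209 and 429.9 to 235, 183 and 357 TPM. Col17a1 went from 1.93, 0.436 and 2.07 TPM in Type D Restored to 0.245, 0.121 and 0.855 TPM in Restored + CsA. In Type V Restored it rose with CsA in 4711-11 and fell in the other lines.

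**Figure D5:**
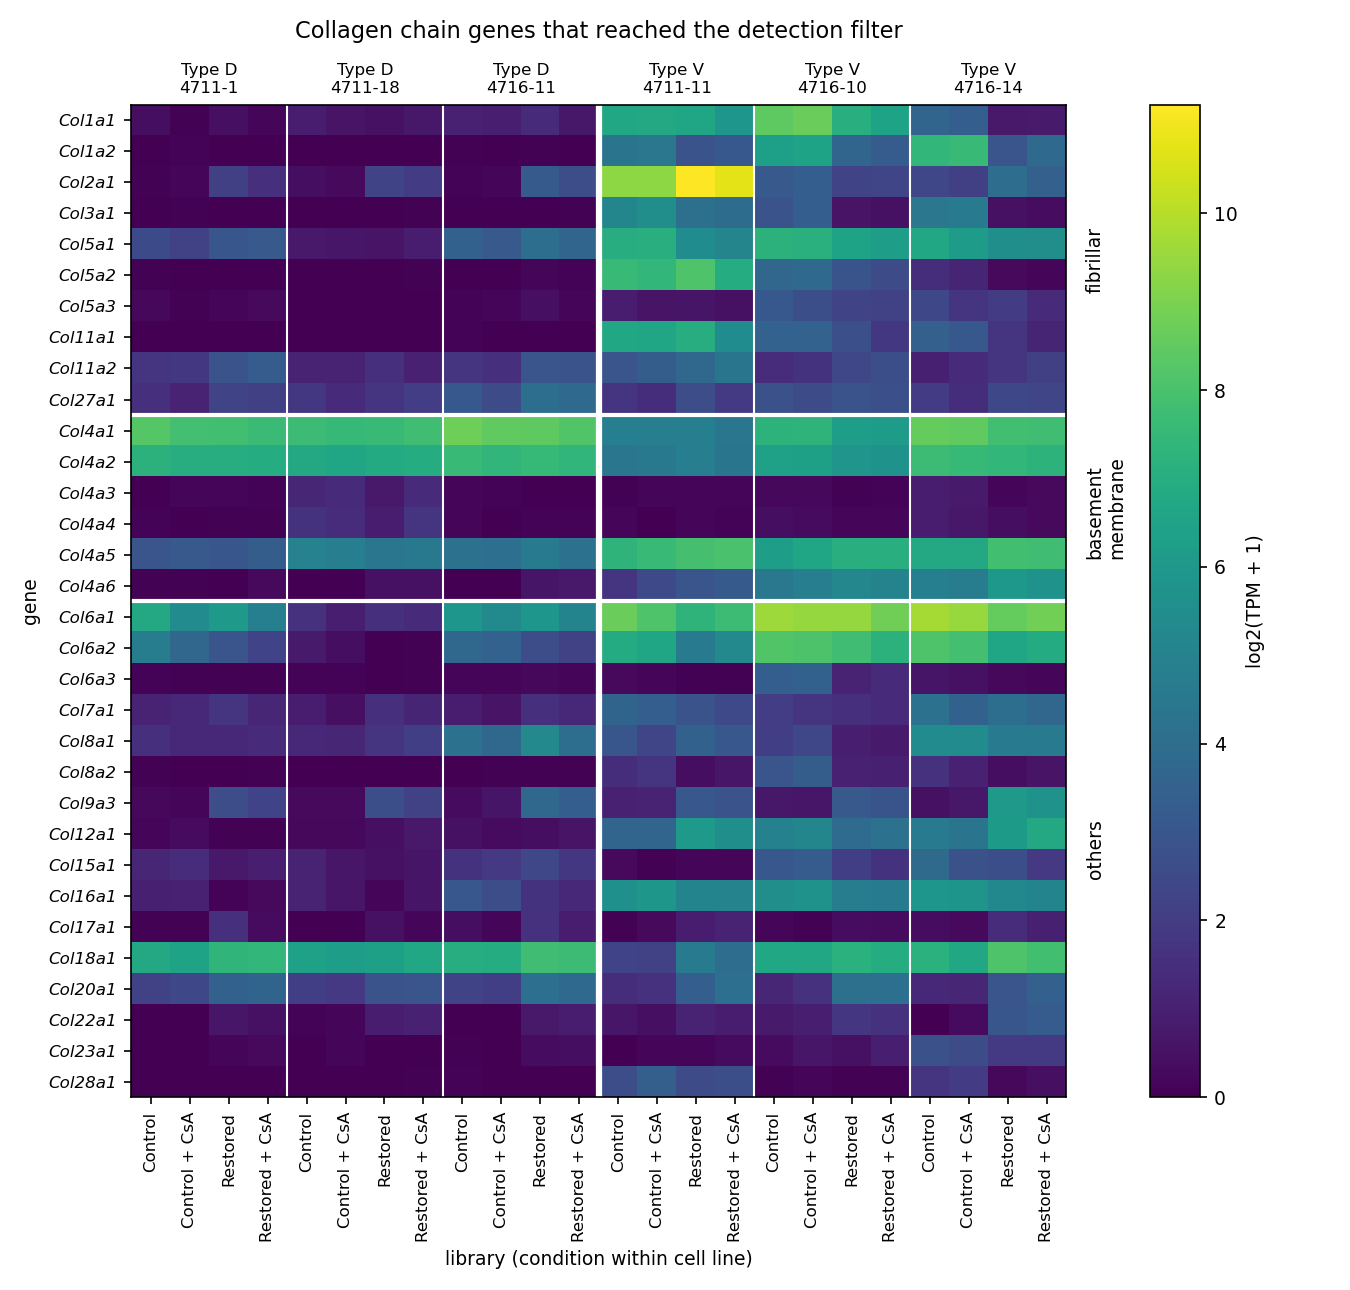
Each cell gives log2(TPM + 1) of 1 of the 32 tested collagen genes (vertical axis, by class) in 1 of the 24 libraries (horizontal axis, 4 conditions within each line, Type D on the left). Col4a1, Col4a2 and Col18a1 are bright in all Type D lines, and most fibrillar rows are dark there.

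The genes that fold, modify and cross-link collagen were read from a list of 30, of which 29 were tested. In Control, 8 were called lower in Type D and 0 higher (4.41% and 4.42% of all genes), and the median difference was -1.11 log2 against -0.12 for all genes tested. With the random block 12 were called lower (5.84% of all genes) and 1 higher, P3h4 (1.72 log2). The share of all genes called higher with the random block is not given here. Lox, the lysyl oxidase that cross-links fibrils, was at 0.0946 TPM or less in Type D and at 280.4, 229.6 and 55.8 TPM in Type V (-7.19 ± 0.75 log2, limma adjusted p = 3.02e-06). In every Type D library Lox stayed under 1 TPM, as did Loxl1, Tll1, Adamts2, Adamts3 and Adamts14. These genes passed the filter on level through Type V and could not have been called higher in Type D. The counts of lower genes and the median therefore restate that filter in part. P3h2, a prolyl 3-hydroxylase that acts on type IV collagen, was lower by -3.51 ± 0.74 log2, and Pcolce, which speeds the removal of the procollagen tail, by -2.81 ± 0.53 log2. Serpinh1, the collagen chaperone Hsp47, was not called (335, 83.2 and 364 against 781, 653 and 409.8 TPM). It was called with the random block (adjusted p = 0.0366). Ppib, cyclophilin B, an endoplasmic reticulum target of CsA that works on procollagen, read 169 to 189.5 TPM in Type D and 157 to 202 TPM in Type V Control libraries, and was called in 0 of 11 comparisons.

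In Restored libraries 9 of the 29 were called lower in Type D and 0 higher (4.99% and 4.45% of all genes). As in Control, genes that passed the filter on level through Type V could not have been called higher. With the random block 11 were called lower (6.17% of all genes) and 2 higher (Loxl2 and P4ha1). Here too the share of all genes called higher with that block is not given, so the 2 cannot be set against it. The lower genes were again led by Lox (-6.10 ± 0.75 log2), P3h2 (-4.18 ± 0.74) and Pcolce (-3.52 ± 0.53). With restoration 1 of the 29 was called in each type, higher, with and without CsA, where 2.84% to 4.49% of all genes were called higher. With the line block 2 were called higher and 2 lower in Type D (7.05% and 4.16% of all genes). In Type V 1 was called higher and 4 lower (Lox, Loxl1, Loxl2 and Pcolce2), where 5.74% and 2.93% of all genes were. With CsA it was 2 higher and 1 lower in Type D (5.91% and 3.78% of all genes). For Type V with CsA it was 1 higher and 3 lower (5.03% and 2.94% of all genes). For the difference between types it was 3 higher (Lox, Loxl2 and Plod2), where 1.13% of all genes were called higher. Lox was at or under 0.237 TPM in every Type D library, so its difference restates the change in Type V. The gene called without the block was Plod2, a lysyl hydroxylase that prepares collagen for cross-linking, which rose from 23.7, 24.8 and 28.1 to 138, 216 and 105 TPM in Type D (2.48 ± 0.39 log2, limma adjusted p = 0.000229) and from 66.5, 36.9 and 39.4 to 201, 76.0 and 108 TPM in Type V (1.34 ± 0.39 log2, limma adjusted p = 0.0338). With CsA the rises were 2.14 ± 0.39 log2 and 1.38 ± 0.39 log2. Of the 29 genes 0 were called in the comparisons of CsA with no CsA.

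Of 10 collagen receptor genes, 7 were tested, and in Control 2 were called higher in Type D and 0 lower, where 4.42% and 4.41% of all genes were. With the random block 1 was also called lower, Mrc2, an endocytic collagen receptor (-2.04 log2, limma adjusted p = 0.0273), where 5.84% of all genes were. Mrc2 stayed under 1 TPM in every Type D library and passed the filter on level through Type V. It could not have been called higher in Type D, and a call from the random block alone carries less weight. Itga2, the alpha chain of a collagen-binding integrin of epithelium, read 81.8, 95.3 and 158 TPM in Type D and 0.247, 5.29 and 10.2 TPM in Type V (4.60 ± 0.83 log2, limma adjusted p = 0.000937). Itga1 read 5.44 to 10.6 TPM in Type D against 0.347, 4.02 and 0.361 TPM (1.91 ± 0.56 log2, limma adjusted p = 0.0302). Between types in Restored, 1 was called higher in Type D and 1 lower (4.45% and 4.99% of all genes). With restoration in Type D 0 were called, and with the line block 1 lower (4.16% of all genes). In Type V 1 was called higher (3.39%), and with the block 2 (5.74%). With CsA and the block 1 was lower in Type D and 1 higher in Type V (3.78% and 5.03%). The difference between types gave 1 lower with the block (1.3%). With restoration Itga10, another collagen-binding integrin chain, rose in Type V from 5.30, 1.77 and 1.29 to 17.3, 6.22 and 10.9 TPM (1.77 ± 0.46 log2, limma adjusted p = 0.017). Ddr1, a collagen-activated kinase, read 85.7 to 145 TPM in Type D and 58.2 to 123 TPM in Type V Control libraries. It was called in none of the 11 comparisons without the block, and with the block it rose with restoration in Type V (1.02 log2, limma adjusted p = 0.000693). It is named outside the rule for naming genes.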

How the data were processed

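RNA was sequenced as stranded mRNA libraries with single-end reads, 1 library for each of 6 lines and 4 conditions. The authors deposited TPM values for 25239 genes, and raw read numbers were not used here. The submitters' notes name HISAT2 and the builds mm10 and GRCm39, the study's methods name both Kallisto and HISAT2, and which tool and build made the TPM values is not given in the sources used here. Each library summed to 1000000 TPM, and 11853 to 12651 genes reached 1 TPM.

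Genes with at least 1 TPM in at least 3 of 24 libraries were kept (14104). Values were taken as log2(TPM + 1) and fitted in limma 3.58.1 (R 4.3.3) with 8 group means and a trend in the variance, and p-values were adjusted by Benjamini-Hochberg over all genes within each of 11 comparisons. A gene was called at an adjusted p under 0.05 and a difference of at least 1 log2. Groups came from the labels. The same lines recur in all conditions, so lines pair the libraries: deviations from the group means correlated at 0.599 to 0.929 in 36 pairs of libraries of one line and at -0.727 to 0.0438 in 96 pairs of different lines of a type. The line was therefore also fitted as a block, fixed within a type and random (consensus correlation 0.736) between types. The random block applies that 1 correlation to all genes and cannot sharpen a difference between separate lines. Calls that it alone gives carry less weight. Without the block, the p-values rest on the spread of 3 lines around each group mean, pooled over the 8 groups. The same lines recur in those groups and their libraries are counted as separate. With the fixed block, the p-values rest on the spread of the changes within lines. Genes were named where called, or where the Control median of a type was at least 10 TPM. Other genes named were chosen after their values were seen. The collagen genes, gene lists and classes were chosen with earlier results of these data known. The alternatives tried were another pseudocount (0.1), no filter, a filter at 5 TPM, quantile normalization, median-ratio scaling, the compared groups alone, the block and leaving out each line. Python 3.11.15 with matplotlib 3.10.9 drew the figures. Promoter sequences are from RefSeq (GRCm38.p6), which held windows for 35 of 44 genes. The value of 1 marker gene is not reported here.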

Additional observations from a re-analysis of the deposited data

Results flagged for a closer look

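For 5 collagen genes the test of the difference between types in the change with restoration passed in limma with the line as a block. The difference, Type D minus Type V, was 2.85 log2 for Col1a2 (adjusted p = 0.0149), 2.40 for Col3a1 (0.0296), 1.38 for Col5a1 (0.0212), 1.40 for Col8a2 (0.0349) and 1.10 for Col7a1 (0.0282). In the limma fit without the block the adjusted p was 0.902 for Col1a2 and 1 for the other 4. Over the alternatives, the difference was called in 2 fits for Col1a2 and in 1 fit, the blocked one, for each of the others. Col1a2, Col3a1 and Col8a2 were at or under 0.0673 TPM in all 12 Type D libraries and passed the filter on level through Type V, so the Type D change was fixed near 0 and the difference restates the change in Type V. Col5a1 and Col7a1 were measurable in both types.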

How the results depend on the processing

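The 33 calls of a collagen gene in a comparison kept their direction under all alternatives run. Only 13 of them were called under every alternative, and each of the others was lost in at least 1. With the line as a fixed replicate block, the number of collagen genes called with restoration went from 3 to 6 in Type D and from 4 to 11 in Type V, with CsA from 1 to 4 and from 3 to 11, and for the difference between types from 0 to 5. The random block gave 16 in place of 14 between types in Control and 12 in place of 8 in Restored. Fitting the compared groups alone gave 7 and 5 between types, 1 with restoration in Type V, and with CsA 2 in Type D and 1 in Type V. In Type D with CsA, a pseudocount of 0.1 and a filter at 5 TPM each gave 2, and in Type V with CsA quantile normalization gave 5. Leaving out 1 line gave 9 to 13 between types in Control and 6 to 10 in Restored, 0 to 4 with restoration in Type D and 3 to 6 in Type V, 0 to 2 and 3 to 6 with CsA, and 0 to 1 for the difference. The 4 comparisons of CsA gave 0 under every alternative. Where no cause is named above, the cause was not tested. The fit without the block treats the 4 libraries of a line as separate, and TPM holds no read numbers, so the counting error of genes near 0 is unknown.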
